A study of Homo sapiens with 8 samples.

Results

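The mitochondrially encoded ND and CO genes are the 10 genes of the mitochondrial genome that encode core subunits of complex I (7 MT-ND genes) and complex IV (3 MT-CO genes) of the respiratory chain. They were found by gene name in the authors' deposited table of m6A differences between parental and CSTF2-knockout cells. The HUH7 column held 9 of the 10 among 10447 genes. The PLC/PRF/5 column held 6 of the 10 among 5477 genes, with 10 of its 9516 values. All 10 members have coordinates in the RefSeq gene table (GRCh38.p14).

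Mitochondrial transcripts are made inside the organelle by its own polymerase, POLRMT, as long precursors that are cut apart mostly at tRNAs and then given short poly(A) tails by MTPAP. They do not pass through nuclear 3′ end formation, in which CSTF2 takes part as a subunit of the cleavage stimulation factor, and they do not meet the METTL3-METTL14 methyltransferase that writes N6-methyladenosine (m6A) on nuclear transcripts. In the columns of the table they therefore stand beside nuclear genes as transcripts of a separate route.

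HUH7 and PLC/PRF/5 are human hepatocellular carcinoma lines. From each line, parental cells (the control) and cells with CSTF2 knocked out by CRISPR-Cas9 gave an IP library (RNA pulled down with an m6A antibody) and an input library, 8 libraries in all and 1 in each of the 8 groups; no treatment or time point is labelled. Per the labels' protocols, RNA was selected on oligo(dT) beads, cut to fragments of about 100 bases and immunoprecipitated with an m6A antibody (MeRIP-seq). Whether each knockout was a single clone is not given in the sources used here. The values are the authors' log2 fold changes, 1 per gene in HUH7 and 1 or more per gene in PLC/PRF/5, there taken as peaks. The headers do not say which genotype is the numerator, so values are given as positive or negative, with no direction toward the knockout. With 1 library per group no value carries an error or a test, and sequencing depth is unknown. CSTF2 was not listed in HUH7. In the authors' deposited table its PLC/PRF/5 value was -0.50, which is a value of the m6A comparison and no check of the knockout. Of 10 hepatocyte markers, 7 were listed in HUH7 and 8 in PLC/PRF/5. ALB was absent from the HUH7 column, and AFP and TTR were absent from both. A missing name is a missing m6A value, not a missing transcript.

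In HUH7, all 9 listed members lay close to 0. Their values ran from -0.22 to 0.18 in the authors' deposited table, which as a linear ratio is 0.859 to 1.13. The median was -0.038, against 0.20 for all HUH7 genes, and the interquartile range was 0.10 wide, against 1.24. None of the 9 reached an absolute log2 fold change of 1, a size that 36.9% of HUH7 genes reached. None reached 0.5 either, against 57.7% of genes. Negative values were held by 8 of the 9, against 39.1% of genes, although 3 of these 8 were nearer to 0 than 0.03.

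The 3 antiporter-like subunits of complex I, which lie in its proton-pumping membrane arm, gave small negative values. MT-ND2 (chromosome MT, 4470 to 5511), the first of them, had -0.016 in the authors' deposited table. MT-ND4 (10760 to 12137), which lies next to MT-ND5 in the arm, had -0.038 in the authors' deposited table. MT-ND5 (12337 to 14148), which lies at the far end of the arm and is the longest member, had -0.16 in the authors' deposited table. MT-ND5 was the lowest of the complex I members, while MT-ND2 and MT-ND4 differed by less than 0.03 from each other.

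Subunits nearer to the site where ubiquinone is reduced lay on both sides of 0. MT-ND1 (3307 to 4262), which helps to form the quinone-binding chamber, had -0.073 in the authors' deposited table. MT-ND3 (10059 to 10404), a small subunit with a loop at that chamber, had 0.18 in the authors' deposited table. It was the only positive member in HUH7 and also the member closest to the column median, at percentile 49.1 of all genes. MT-ND6 (14149 to 14673), which is transcribed from the opposite strand to the other members, had -0.0061 in the authors' deposited table, the value closest to 0. Its mRNA is known to lack the poly(A) tail of the others, and it was listed in both lines.

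MT-ND4L and MT-ND4 are carried on 1 mRNA, and their HUH7 values were nearly alike. MT-ND4L (10470 to 10766), the shortest member, overlaps MT-ND4 by 7 bases and had -0.025 in the authors' deposited table, beside -0.038 for MT-ND4. Reads of this shared transcript near the junction could have been given to either gene, and how the authors assigned them is not given in the sources used here.

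The 2 listed complex IV members were among the 3 lowest values of the group. MT-CO1 (5904 to 7445), the catalytic subunit in which oxygen is reduced, had -0.12 in the authors' deposited table. MT-CO2 (7586 to 8269), which takes up electrons from cytochrome c, had -0.22 in the authors' deposited table, at percentile 29.3 of the column. MT-CO3 (9207 to 9990), the remaining core subunit, was listed in neither line. From lowest to highest the order was MT-CO2, MT-ND5, MT-CO1, MT-ND1, MT-ND4, MT-ND4L, MT-ND2, MT-ND6 and MT-ND3. Since the values carry no error, no neighbours in this order can be told apart.

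**Figure D1:**
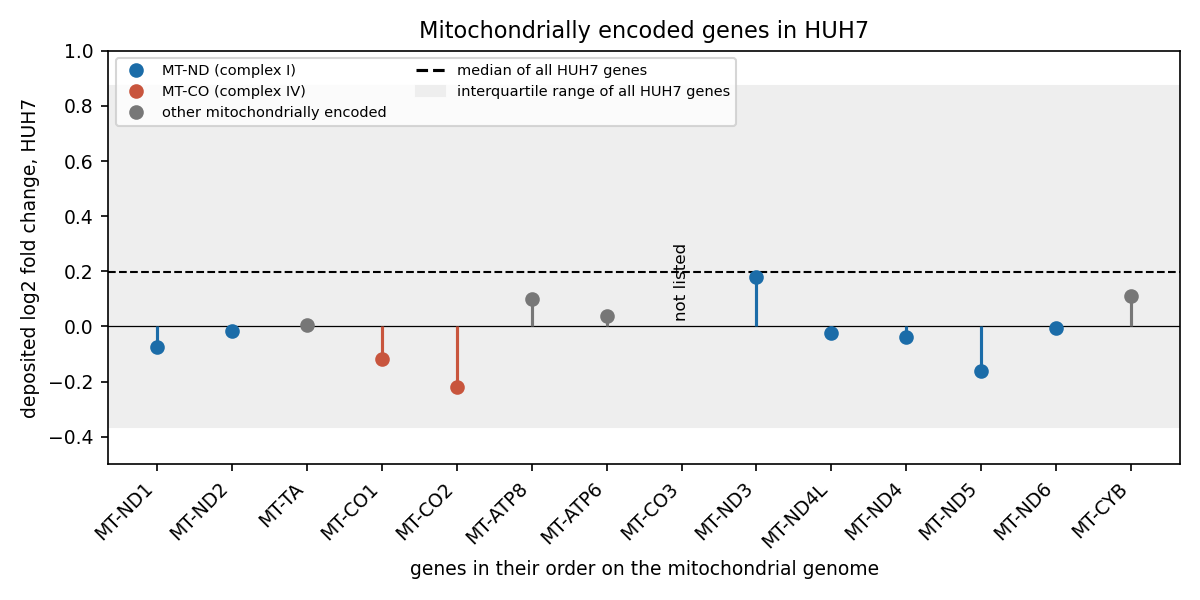
Deposited log2 fold changes of the mitochondrially encoded genes in HUH7, in their order on the mitochondrial genome, with the median (dashed) and interquartile range (grey) of all HUH7 genes. All 13 points lie below the dashed line at 0.20, and MT-CO3 was not listed.

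The other listed mitochondrially encoded genes shared this narrow range, at small positive values. MT-CYB, the complex III subunit, had 0.11 and MT-ATP8, an ATP synthase subunit, had 0.10 in the authors' deposited table. MT-ATP6, whose gene overlaps MT-ATP8 by 46 bases, had 0.039 and the alanine tRNA gene MT-TA had 0.0053 in the authors' deposited table. These 4 were positive, as were 60.8% of all HUH7 genes, while 8 of the 9 members were negative. The highest value of the 13 was that of a member, MT-ND3 (0.18 in the authors' deposited table). These signs depend on where 0 is set. All 13 nevertheless lay below the column median, between 0.017 (MT-ND3) and 0.42 (MT-CO2) under it. The range spanned by the members held 19.8% of all HUH7 genes, from percentile 29.3 to 49.1, and took in all 4 of these other genes.

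Genes of the mitochondrial genome had a narrower spread than those of each of 23 nuclear chromosomes. The interquartile range of the 13 was 0.11, against 0.79 (chromosome 20) to 1.71 (chromosome 18) over the nuclear chromosomes. Their median of -0.016 was below the chromosome medians, which ran from 0.053 on chromosome 13 to 0.39 on chromosome 21. An absolute log2 fold change of 1 was reached by 0 of the 13 genes and by 25.9% to 49.0% of the genes of a nuclear chromosome. A nuclear chromosome holds many more genes than 13, and expression, which was not analysed here, was not matched. The part that transcript level plays in the narrow spread was not tested.

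**Figure D2:**
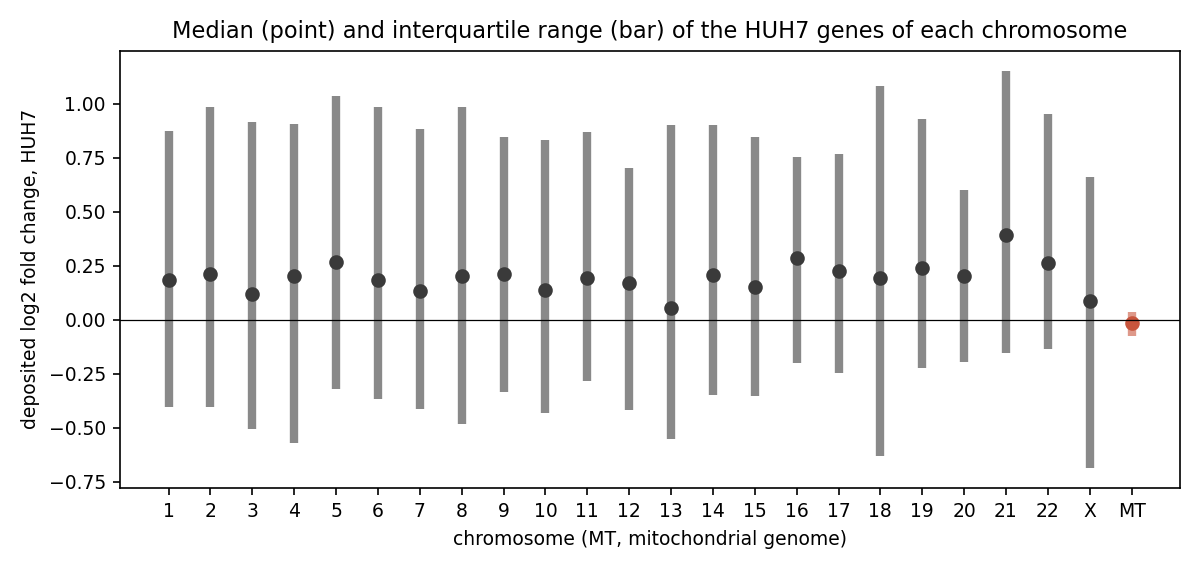
Median (point) and interquartile range (bar) of the deposited HUH7 log2 fold changes for the genes of each chromosome. The mitochondrial genome (MT, 13 genes) has a median of -0.016 and a bar 0.11 wide, against 0.79 to 1.71 for the nuclear chromosomes.

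Nuclear genes of complex I subunits had a median near 0 as well, but reached farther to both sides. Of 37 nuclear complex I subunits, 21 were listed in HUH7, 11 positive and 10 negative, with their median at 0.022 and an interquartile range 0.44 wide. Of all HUH7 genes, 60.8% were positive. Absolute values of 1 or more were held by 5 of the 21 (23.8%), against 36.9% of all HUH7 genes and 0 of the 7 MT-ND genes. NDUFA10 (1.94) and NDUFS7 (1.31) were the highest, and NDUFA13 (-2.26) and NDUFS3 (-1.01) the lowest of its unrepeated values in the authors' deposited table. A value is called repeated where 10 or more HUH7 genes share it to 6 decimals and its size is above 1; 1315 genes hold such values and no member does. The nuclear subunit NDUFB11 held a repeated value of -7.94 in the authors' deposited table.

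The 5 listed complex IV subunits encoded in the nucleus had higher values than the 2 listed that are encoded in mitochondria. The 5 listed of 15 nuclear subunits were all positive, as were 60.8% of HUH7 genes, and ran from 0.072 (COX6A1) and 0.092 (NDUFA4) to 0.38 (COX4I1) and 0.46 (COX5B) in the authors' deposited table. MT-CO1 and MT-CO2, at -0.12 and -0.22, were both below them in the authors' deposited table. Against the column median of 0.20, 2 of the 5 nuclear subunits (COX6A1 and NDUFA4) lay on the same side as MT-CO1 and MT-CO2, so the split in sign depends on where 0 is set. The 5 nuclear subunits spanned 0.39, near the 0.40 of the 9 members together, though over fewer genes. Their interquartile range was 0.29 wide, against 0.10 for the members. An absolute value of 1 was reached by 0 of the 5, against 36.9% of all HUH7 genes. The difference between the 2 sets has no test, since each value comes from 1 pair of genotypes. MT-CO1 and MT-CO2 also stand in a later part of the column, described below, in which 90.2% of values are negative. The part of that place in the difference was not tested.

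Factors that assemble these complexes spread more widely than the members. Of 17 complex I assembly factors, 14 were listed, 7 positive and 7 negative, with a median of -0.051, where 60.8% of all HUH7 genes were positive. TIMMDC1 (1.2) and TMEM70 (0.87) were the highest, and NDUFAF7 (-0.69) and NDUFAF3 (-0.63) the lowest of their unrepeated values in the authors' deposited table. Without the repeated values of TMEM126B (-9.11) and NDUFAF6 (-7.53) in the authors' deposited table, the median of this list was 0.088 and so changed sign. Of 24 complex IV assembly factors, 19 were listed, 11 positive and 8 negative, with a median of 0.20. COX19 (1.21) and TACO1 (0.66), a translational activator of MT-CO1, were the highest, and COA7 (-1.07) and COA4 (-0.84) the lowest in the authors' deposited table.

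Genes that make, modify and translate the members' transcripts held more positive than negative values in HUH7, where 60.8% of all genes are positive. Of 32 genes of mitochondrial DNA expression and RNA turnover, 26 were listed, 19 positive and 7 negative, with a median of 0.26. FASTKD3 (2.49) and REXO2 (1.35) were the highest and TBRG4 (-0.57) and FASTKD2 (-0.47) the lowest of its unrepeated values in the authors' deposited table. Beyond these lay the repeated values of SLIRP (11.09), which with LRPPRC stabilises mitochondrial mRNAs, and of the RNA-binding protein gene GRSF1 (-9.11) in the authors' deposited table. Enzymes of mitochondrial RNA modification had 13 positive and 7 negative genes of 23, 65.0% of those listed and so near the share of the column, with a median of 0.11. GTPBP3 (2.83) and TRMT2B (2.07) were the highest and METTL15 (-1.11) and NSUN4 (-0.80) the lowest of its unrepeated values in the authors' deposited table. Below these lay the repeated value of PUS1 (-7.94) in the authors' deposited table. Mitochondrial ribosomal protein genes had 42 positive and 12 negative values with a median of 0.26. MRPL20 (3.76) and MRPL19 (1.69) were the highest and MRPL10 (-0.53) and MRPL35 (-0.44) the lowest of their unrepeated values in the authors' deposited table. The repeated values of MRPS23 (-8.75) and MRPS21 (-8.53) were lower still in the authors' deposited table.

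Over these 7 nuclear lists together, 29 of 159 listed genes, or 18.2%, had an absolute value of 1 or more in HUH7, which is below the 36.9% of the column and above the 0 of 9 members. The range of the members held 19.8% of all HUH7 genes. It held 42.9% of the nuclear complex I subunits, 40% of the nuclear complex IV subunits and 35.2% of the mitochondrial ribosomal protein genes. For enzymes of mitochondrial RNA modification the share was 35%, and for complex I assembly factors 28.6%. It was 23.1% for genes of mitochondrial DNA expression and RNA turnover and 15.8% for complex IV assembly factors.

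**Figure D3:**
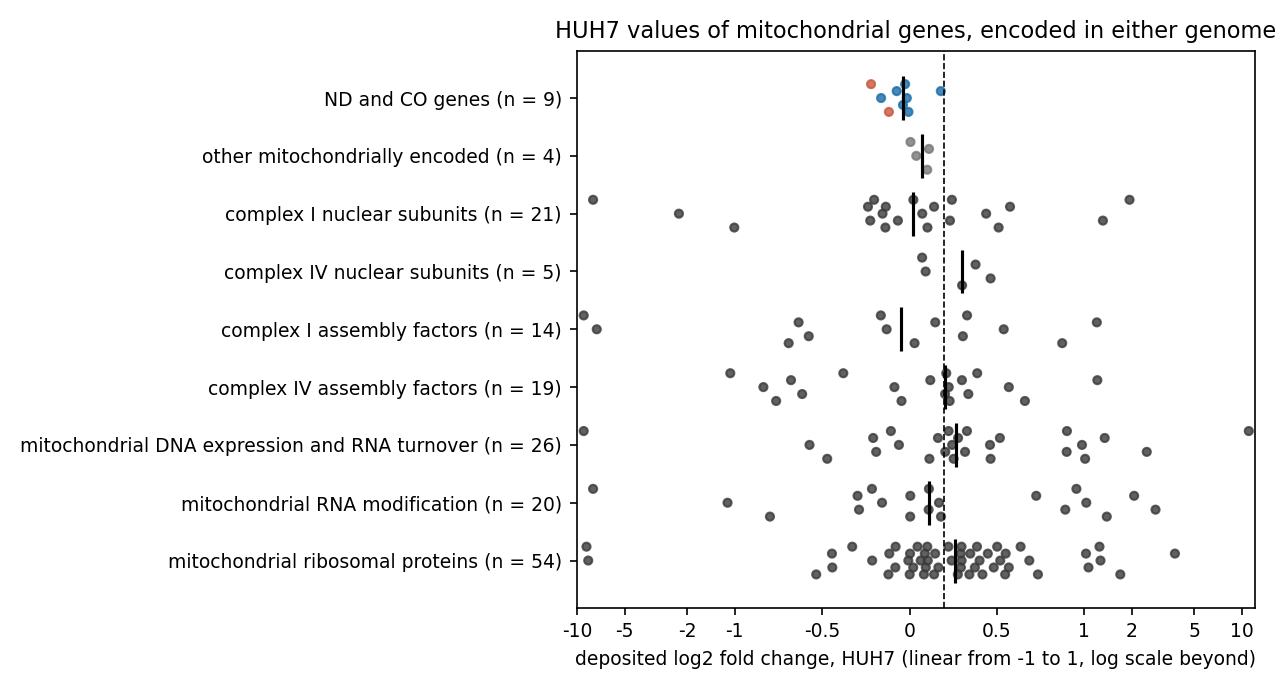
Deposited HUH7 log2 fold changes of the ND and CO genes and of other mitochondrial gene lists, 1 point per gene, on an axis that is linear from -1 to 1 and logarithmic beyond; ticks mark list medians and the dashed line the median of all genes. The 9 members sit between -0.22 and 0.18, and 6 of the 7 nuclear lists reach past 1 on at least 1 side.

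The complex I and complex IV members stood in different places of the HUH7 column. The column runs through the chromosomes from 1 to X, with the mitochondrial genes between 22 and X, and then does so again from place 9969 on. The first passage held 9968 genes and the second 479. All 7 MT-ND genes stood in the first passage, at places 9706 to 9714 and together with MT-ATP6, MT-ATP8 and MT-CYB. MT-CO1, MT-CO2 and MT-TA stood in the second, at places 10422 to 10424. What the 2 passages stand for is not given in the sources used here.

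The second passage was shifted strongly to negative values, and its mitochondrial genes were not. Its median was -2.27, against 0.24 in the first, with 90.2% negative values against 36.7%. An absolute value of 1 or more was held by 73.9% of its genes, against 35.1%. MT-CO1 stood at percentile 87.2 and MT-CO2 at percentile 84.0 of the second passage, whereas both lay below the median of the whole column. Of the 310 unrepeated values in the second passage, which had a median of -1.26, 40 were above that of MT-CO1 and 55 above that of MT-CO2. In the first passage, the MT-ND genes lay between percentile 29.0 (MT-ND5) and 47.0 (MT-ND3). MT-TA, at 0.0053 in the authors' deposited table, stood at percentile 90.9 of the second passage and above 6 of the 7 MT-ND genes of the first. The part of the passage in the lower values of MT-CO1 and MT-CO2 was not tested.

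**Figure D4:**
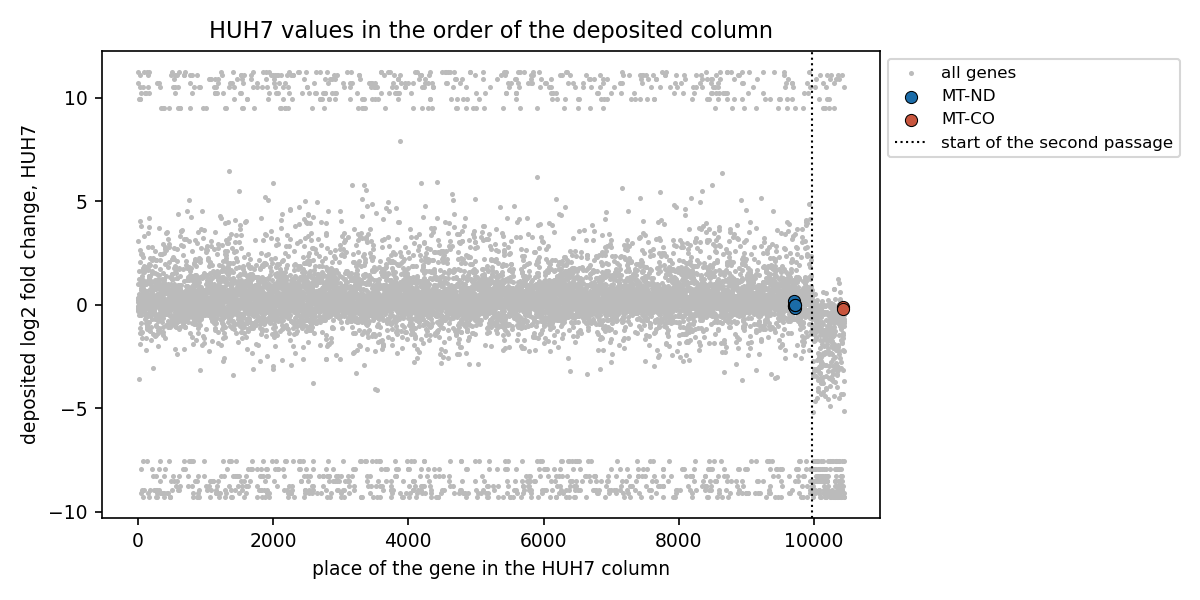
Deposited HUH7 log2 fold changes against the place of each gene in the column, with the MT-ND and MT-CO genes marked and the start of the second passage dotted. The MT-ND genes lie in the first passage and MT-CO1 and MT-CO2 in the second, whose other genes have a median far below 0.

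In PLC/PRF/5 the members had large values that spread over nearly the whole range of the column. The 10 peaks of 6 members ran from -0.85 to 12.62 with a median of 5.35, against 5.44 for all peaks, in the authors' deposited table. Positive values were held by 9 of the 10, against 86.0% of all peaks. An absolute value of at least 1 was held by 8 of the 10, against 87.1% of all peaks. Values of 10 or more, a limit outside the planned design, were held by 4 of the 10, against 19.7%. These 4 include both peaks of MT-ND2, so they are not 4 separate genes. The counts of positive values and of values past 1 are thus near those of the whole column. The column as a whole starts at -2.12 and has quartiles at 1.72, 5.44 and 9.19, which are nearly evenly spaced, so neither a high nor a low value singles out a gene. Whether a PLC/PRF/5 value is tied to the gene beside it could not be settled from the table, and the values by gene, pair and copy below are given as listed, with that limit.

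Among the antiporter-like subunits of complex I, MT-ND2 had peaks at 10.89 and 11.78 and MT-ND4 had 1 peak at 12.06 in the authors' deposited table. MT-ND5 had peaks at 0.46 and 8.34 in the authors' deposited table, 1 low and 1 above the column median. MT-ND4L had 1 peak at 2.01 in the authors' deposited table, 10 log2 units below the peak of MT-ND4 on the same mRNA. In HUH7 the same pair differed by less than 0.02. MT-ND6 had peaks at -0.85 and 2.37 in the authors' deposited table and was the only member with peaks of both signs. MT-CO1 had peaks at 1.29 and 12.62 in the authors' deposited table, 11.3 apart. MT-ND1, MT-ND3, MT-CO2 and MT-CO3 were not listed.

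Peaks of the same member could lie far apart. The 4 members with 2 peaks had gaps of 0.89 (MT-ND2), 3.22 (MT-ND6), 7.88 (MT-ND5) and 11.3 (MT-CO1), with a median of 5.55. Over all 1274 genes with 2 peaks, the median gap was 4.35, with an interquartile range of 1.96 to 7.51. Opposite signs were found in 1 of the 4 members and in 23.7% of genes with 2 peaks. The position of a peak on its transcript was not analysed here, so the peaks of a member cannot be placed within it.

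Of the other mitochondrially encoded genes, the rRNA genes MT-RNR1 (11.98) and MT-RNR2 (3.50) and the mRNA gene MT-CYB (-1.75) had 1 PLC/PRF/5 peak each in the authors' deposited table. MT-CYB and the lower MT-ND6 peak were the 2 negative values of the 13, where 14.0% of all peaks were negative.

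Nuclear copies of mitochondrial genes were listed in PLC/PRF/5 and not in HUH7. These are pieces of mitochondrial DNA inserted into chromosomes, and since they resemble mitochondrial genes, reads of mitochondrial transcripts can be placed on them. MTCO1P12 (chromosome 1, 631074 to 632616), a copy of MT-CO1, had peaks at -0.74 and 1.70 in the authors' deposited table, beside 1.29 and 12.62 for MT-CO1. MTND2P28 (chromosome 1, 629640 to 630686), a copy of MT-ND2, had 0.29 in the authors' deposited table, beside 10.89 and 11.78 for MT-ND2. MTND5P2 (chromosome 13, 95692538 to 95693972), a copy of MT-ND5, had 4.57 in the authors' deposited table, between the peaks of MT-ND5 at 0.46 and 8.34. MTATP6P1 (9.86) was the highest of the 8 peaks of 7 copies, and MTCO1P47 (-1.30) and MTRNR2L8 (-1.35) were the lowest in the authors' deposited table. By name, MTATP6P1 is a copy of MT-ATP6, and MTRNR2L8 and MTRNR2L12 are copies of MT-RNR2, which are not members. The median over the copies was 0.094, and 4 of their 8 peaks were negative, against 14.0% of all peaks. How reads that match both a member and a copy were placed is not given in the sources used here, so members and copies in PLC/PRF/5 are uncertain against each other.

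**Figure D5:**
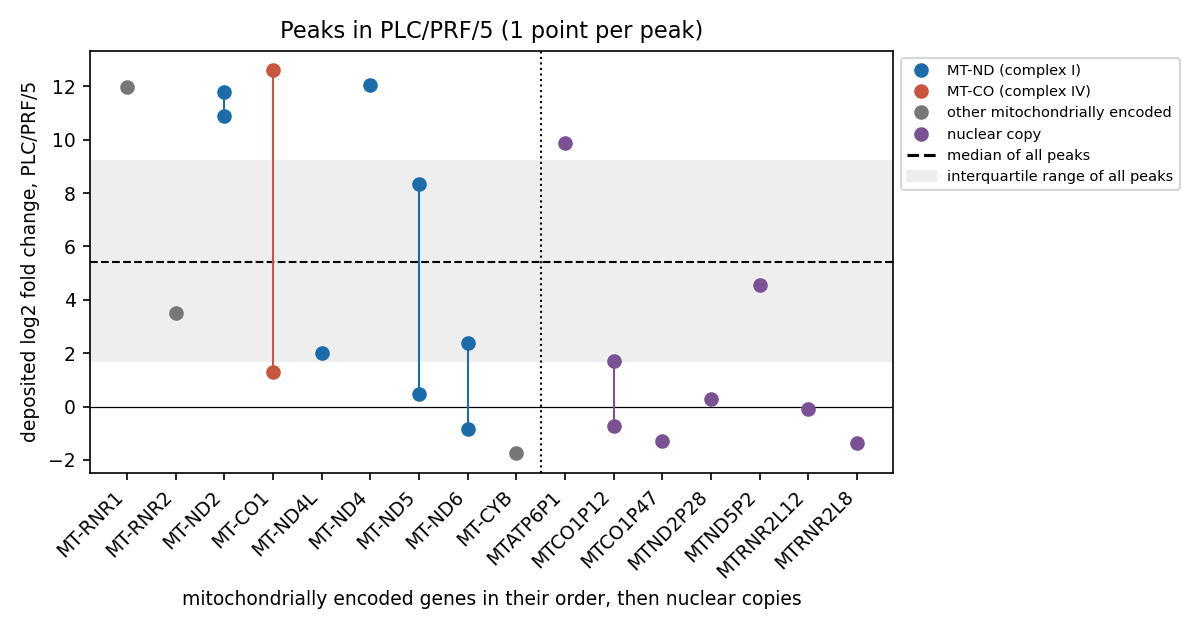
Deposited PLC/PRF/5 log2 fold changes of mitochondrially encoded genes, in their order on the mitochondrial genome, and of nuclear copies, 1 point per peak, with lines joining peaks of 1 gene, the median (dashed) and the interquartile range (grey) of all peaks. The members reach from -0.85 to 12.62, and 6 of the 8 peaks of the copies lie below 2.

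Nuclear partners of the members also had PLC/PRF/5 values over most of the column's range. Of all PLC/PRF/5 peaks, 86.0% were positive, and the median over all peaks was 5.44. The 8 listed nuclear complex I subunits had 12 peaks, 9 positive and 3 negative, with a median of 7.10. They ran from NDUFS1 (-1.72) to NDUFA5 (12.23), which also had a peak at -1.64, in the authors' deposited table. The 3 listed nuclear complex IV subunits had 5 peaks, all positive, with a median of 3.93. They ran from COX4I1 (1.65), which also had a peak at 10.07, to COX6C (10.48) in the authors' deposited table.

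The 6 members in both lines were negative in HUH7 and had a positive median in PLC/PRF/5. The pairs were -0.016 and 11.3 for MT-ND2, -0.038 and 12.06 for MT-ND4, and -0.025 and 2.01 for MT-ND4L. They were -0.16 and 4.40 for MT-ND5, -0.0061 and 0.76 for MT-ND6, and -0.12 and 6.95 for MT-CO1. None of the 6 had the same sign in both columns, which compares the lines only if both columns use the same direction, and that is not stated. Of the 1607 other shared genes that were negative in HUH7, 90.5% also had a positive median in PLC/PRF/5, so the opposite signs of the members are those of nearly any gene negative in HUH7. The largest absolute HUH7 value of the 6 is 0.16. The PLC/PRF/5 medians reach an absolute value of 1 in 5 of the 6, against 89.0% of all PLC/PRF/5 genes. With the median of these 6 members (-0.031 and 5.67) as a reference point over the 2 columns, PLCXD1 (-0.060 and 5.68), HJURP (-0.028 and 5.65) and ZNF445 (-0.039 and 5.72) were the nearest of 3859 other shared genes, at distances of 0.029 to 0.045 log2 units. Since 433 of these genes lay within 1 unit, nearness on 2 values sets none of them apart. The PLC/PRF/5 values of HJURP and ZNF445 are medians over several peaks. Those peaks ran from -1.46 to 9.05 in HJURP and from -1.24 to 6.10 in ZNF445 in the authors' deposited table.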

How the data were processed

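MeRIP-seq compared parental and CSTF2-knockout cells of 2 lines, with 1 IP and 1 input library per line and genotype. The authors deposited log2 fold changes, per the file headers, 1 column per cell line beside gene names; the submitters' processing notes name FastQC 0.12.0 and build hg38. The sources used here do not give the aligner, peak caller, differential test, scaling, filters or direction of the ratio. A change of scaling would shift a whole column, so values are set against its median.

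Members were matched by exact name and placed by RefSeq coordinates (GRCh38.p14); 97.1% of HUH7 names got a chromosome. Percentiles count ties in equal parts. Where 1 PLC/PRF/5 value per gene was needed, the median over its peaks was taken. The fold used for counts was an absolute log2 value of 1, and the limit of 10 in PLC/PRF/5 was outside the planned design. No test was run, since no group has a replicate; the planned design had none either. Named genes are all members, the 2 highest and 2 lowest unrepeated values of each of 10 lists and name patterns (in PLC/PRF/5 the ends of the complex I, complex IV and copy lists are printed), CSTF2, and the 3 nearest genes; genes with repeated values were named after their values were seen. Hepatocyte markers were used for presence only: their HUH7 median was -0.18. Members and lists were chosen with earlier results of these data known. Functions were tested on simulated data. Python 3.11.15, numpy 2.4.6, pandas 2.3.3, scipy 1.17.1 and matplotlib 3.10.9 were used.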

Additional observations from a re-analysis of the deposited data

How the results depend on the processing

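The HUH7 median of the members, their counts past each minimum and the absence of shared signs between the lines kept their values or stayed within 1.5 times under the alternatives run on them. Without repeated values, the percentile of the members' HUH7 median went from 37.3 to 33.6. The share of HUH7 genes past an absolute value of 1 went from 36.9% to 27.8%, since every repeated value is past 1 by definition. The HUH7 median of nuclear complex I subunits went from 0.022 to 0.047 and that of mitochondrial ribosomal protein genes from 0.26 to 0.28. That of complex I assembly factors went from -0.051 to 0.088. The repeated values left out of these lists were all negative, from -9.11 to -7.53 in the authors' deposited table. With a minimum of 0.5 the share past it was 57.7% in HUH7 and 93.9% in PLC/PRF/5, and with 2 it was 21.4% and 73.7%, against 0 of 9 members in HUH7 and 9 and 7 of 10 peaks in PLC/PRF/5. The PLC/PRF/5 median over members was 5.67 by gene medians, 10.06 by the peak farthest from 0 of each gene and 5.35 over peaks. No paired analysis was possible because each group holds 1 library and the table holds no value per library. Depth is unknown and limits every value to a description.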
